A study of Mus musculus with 4 samples.

Results

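The spots named GC_T Border by the authors lie where a germinal centre meets the T cell zone of a mouse lymph node. They were taken as deposited, by that region name, and number 158 of 7271 spots over 4 sections, of which section A held 33, B 51, C 43 and D 31. The sections were cut from draining lymph node of mice collected 14 days after immunization and 3 days into gavage. They are 10 µm thick, lie 50 µm apart in depth, share 1 sample ID stem and form 1 group, with no untreated control among them. The sources used here do not give strain, genotype, antigen, gavaged agent or number of animals, and the section names carry the tag eYFP without spelling it out. RNA was captured on a Visium array, whose barcoded spots each sample a small patch of tissue that can hold several cells of different types.

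The T zone is the part of the node where T cells meet dendritic cells, and T cells reach it by following CCL21 and CCL19 through the receptor CCR7. A germinal centre is a cluster of responding B cells with a dark zone (DZ), where they divide, and a light zone (LZ), where they are selected with help from follicular T cells. The interface of germinal centre and T zone is known as a place where newly made plasmablasts appear on their way to the medulla, where plasma cells collect.

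The deposited table holds 10 measures per spot. They comprise UMIs (unique molecular identifiers, which mark single captured transcripts), genes with a count, mitochondrial and ribosomal genes as a percent of counts, and 6 gene list scores. Of the scores, the name of pc_markers points to plasma cell markers and that of Mo_GC_vs_Mem to germinal centre against memory B cells. Mo_Nr4a1_SC, Mo_Inmt_SC, Mo_Nr4a1Inmt_SC and Mo_CD34_SC are called by their column names, which are not explained. Nr4a1, Inmt and CD34 are also markers by which stromal subsets of the mouse lymph node have been named. A score has no true zero, so differences are given and no ratios. Levels of Cd3e, Cd4, Ccr7 and Ccl21a, the genes that would check the T zone label, were not analysed here. The T zone label was therefore not checked. The region names follow the deposited expression clusters closely, and all 158 border spots were in the cluster that also held 1832 of the 1834 T zone spots.

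Within that cluster the border and T zone names were split by position. All 158 were next to a dark or light zone spot on the array, and 0 of the 1834 T zone spots were. The split thus followed position, but it is not free of the measures. All 539 DZ and 414 LZ spots, whose positions set it, were in another expression cluster. Mo_GC_vs_Mem, for example, averaged 0.265 in DZ and 0.148 in the T zone. Differences between the border and the T zone in such measures are therefore tied to the naming in part. GC_B Border and GC_Medulla Border, the corresponding edges towards the B cell follicle and the medulla, fell mainly in other expression clusters. Direct differences from them, and from DZ, are given as descriptions with no test.

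The border spots formed 65 separate stretches along the germinal centre edges, 32 of them a single spot. The longest stretch held 13 spots, in section C, and the longest in sections A, B and D held 5, 7 and 6. They made up 2.00% of the spots in section A (exact 95% binomial interval 1.38 to 2.80%) and 2.72% in B (2.03 to 3.56%). The shares were 2.31% (1.68 to 3.10%) in C and 1.64% (1.12 to 2.32%) in D. The intervals cover counting error only and overlap between all sections. Of all spots on the 3 germinal centre edges, GC_T Border took 14.9% ± 2.38 (SD over 4 sections, as for every ± below). The 2 largest connected groups of spots in each section were taken as its upper and lower tissue pieces, by array row. The upper piece held 82 border spots and the lower 76. Only 8 of those in the lower piece were in section A.

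**Figure D1:**
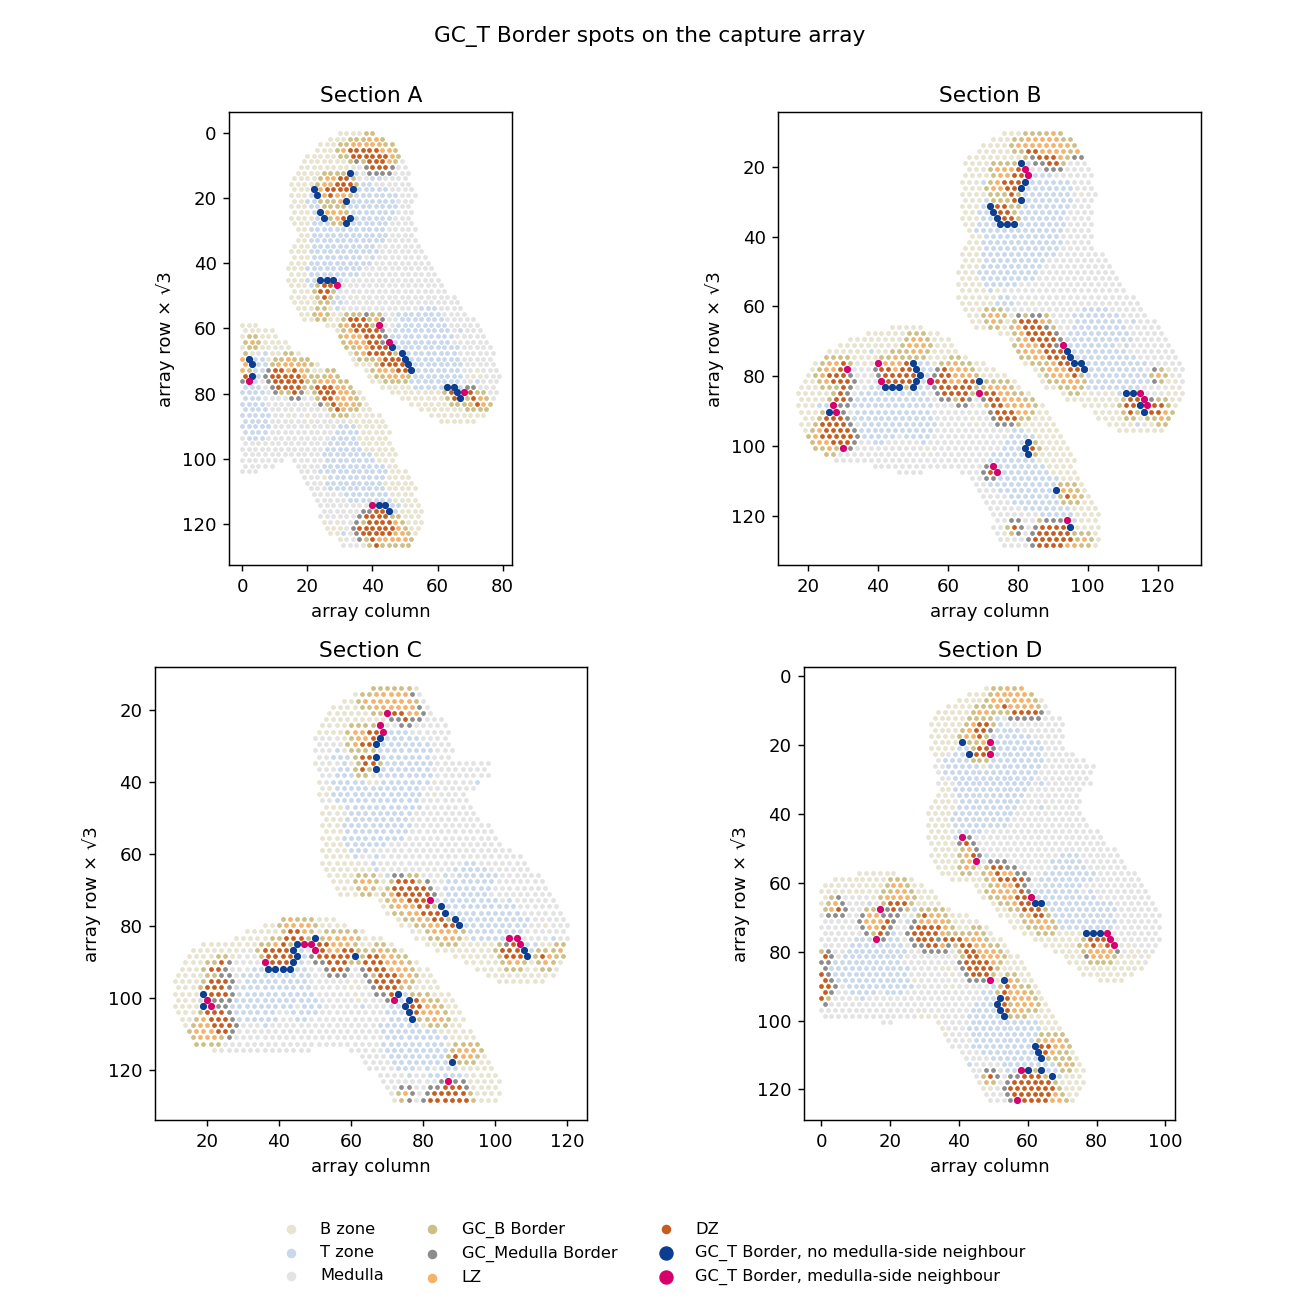
Position of the border spots on the capture array in sections A to D, with array column on the x axis and array row, scaled to the hexagonal grid, on the y axis. Blue points are GC_T Border spots with no medulla-side neighbour (107 spots), pink points those with one (51 spots), and the other regions are in pale or orange colours; most border points lie against DZ spots.

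The border ran along dark zones far more often than light zones. Of the 158 spots, 140 touched DZ alone, 10 touched LZ alone and 8 touched both. The sections held 539 DZ and 414 LZ spots in all. This split was not made for the other edges, so whether it is particular to the T side was not tested. Of the 10 with LZ alone, 7 were in section A. An average border spot had 1.36 ± 0.225 DZ neighbours and 0.159 ± 0.134 LZ neighbours among the 6 positions around it. The remaining positions held 1.86 ± 0.190 T zone, 1.20 ± 0.257 GC_T Border, 0.752 ± 0.0733 GC_B Border, 0.299 ± 0.0960 GC_Medulla Border, 0.190 ± 0.0560 Medulla and 0.162 ± 0.0349 B zone spots. A single germinal centre neighbour was found for 84 spots, 2 for 66 and 3 for 8. Many germinal centre patches were small, and 51 border spots touched no patch of 10 or more connected DZ and LZ spots.

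Depth differed between sections. Whole sections held from 8016778 UMIs (D) to 20518149 UMIs (B). Border spots averaged 8715, 11673, 3880 and 4734 UMIs in A to D, with single spots between 2196 and 21628. Sections A and B were deeper than C and D, so every comparison was formed within a section before averaging. Fewer cells in a spot and less RNA per cell cannot be told apart here. With 4 section differences, the two-sided exact sign-flip permutation test has a smallest p of 0.125, so no comparison could pass a threshold of 5%. How many sections share a direction is reported instead. The sections are serial, so the SDs measure the spread between these sections alone, which may be technical.

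The plasma cell marker score was higher at the border than in the T zone behind it and in the dark zone in front of it. The score pc_markers averaged 0.242, 0.246, 0.209 and 0.215 in the border spots of sections A to D. T zone spots averaged 0.214, 0.233, 0.181 and 0.190 in the same order. The border was the higher in 4 of 4, by 0.0234 ± 0.00715 (p = 0.125 by the exact test, adjusted p = 0.179 over the 10 measures). Dark zone spots averaged 0.148, 0.179, 0.141 and 0.145, so the border lay above both T zone and dark zone in 4 of 4 sections. Border and dark zone names follow different expression clusters, so that part is a description. Medulla and GC_Medulla Border averaged more than the border, at 0.279 ± 0.0631 and 0.308 ± 0.0608. GC_Medulla Border likewise lay above both Medulla and dark zone in 4 of 4 sections, so this pattern was not particular to the T side. For UMIs, genes, both percentages and Mo_GC_vs_Mem the border lay between T zone and dark zone in 4 of 4.

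The border difference in pc_markers was 0.0183 ± 0.00594 against T zone spots only 2 or 3 steps from a germinal centre, and 0.0228 ± 0.00813 against T zone spots matched on steps from the medulla side. Border spots with no medulla-side neighbour exceeded the T zone by 0.0213 ± 0.0121. Matched on UMI quartile the difference was 0.0197 ± 0.00647. The border was the higher in 4 of 4 under each of these, and also within the upper tissue piece at 0.0178 ± 0.0107 and the lower at 0.0266 ± 0.00717.

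Single border spots spread widely around these means. Their pc_markers values ran from 0.0957 to 0.356, with an SD over spots of 0.0487 averaged over sections, above the difference between the border and T zone means. Of the 158 spots, 106 lay above the T zone median of their section, a share of 68.0% ± 7.01. The 90th percentile of the T zone was exceeded by 42 border spots, or 27.0% ± 8.03. For ribosomal percent no border spot passed the 90th percentile of the T zone, and 19 of 158 passed the median.

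The germinal centre score was also higher at the border than in the T zone. Mo_GC_vs_Mem averaged 0.165, 0.182, 0.158 and 0.163 in A to D, against 0.155, 0.165, 0.135 and 0.138 in the T zone. The difference of 0.0187 ± 0.00644 was above 0 in 4 of 4 (p = 0.125 by the exact test, adjusted p = 0.179). The border was below the dark zone in 4 of 4, by -0.0976 ± 0.0113. In section B every border spot lay at or below 0.210, where the dark zone mean was 0.271. This score ran with depth inside the border, with a Spearman's rho against UMIs of 0.668 ± 0.104 over the 31 to 51 spots of a section. Border spots held 553.3 ± 328 more UMIs than T zone spots in 4 of 4 sections. The UMI difference was above 0 in 3 of 4 with medians (361.4) and within each tissue piece, and in 2 of 4 against T zone spots 2 or 3 steps away (480.4). It was 983.1 for border spots without a medulla-side neighbour. Once log10 UMIs had been fitted linearly, the difference in Mo_GC_vs_Mem was 0.0119 ± 0.00276, above 0 in 4 of 4.

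Of the 4 SC scores, Mo_Nr4a1_SC alone separated the border from the T zone with 1 direction in all sections. It averaged -0.00544, -0.0105, -0.0101 and -0.00587 in the border spots of A to D. T zone spots averaged -0.0148, -0.0186, -0.0182 and -0.0152. The difference was 0.00874 ± 0.000719 (p = 0.125 by the exact test, adjusted p = 0.179), and Mo_Nr4a1_SC joined pc_markers in lying above both T zone and DZ in 4 of 4 sections. Border spots without a medulla-side neighbour exceeded the T zone by 0.00573 ± 0.00289 in 4 of 4. Single spots overlapped widely, with an SD over border spots of 0.0240 averaged over sections. Of the 158 border spots, 106 lay above the T zone median of their section and 28 above its 90th percentile. The level was not particular to this edge, as GC_B Border averaged -0.00956 and B zone -0.00810.

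The other SC scores had no shared direction between the border and the T zone over all border spots. Mo_Inmt_SC differed by 0.00194 ± 0.00320, with the border higher in 3 of 4 (p = 0.375 by the exact test, adjusted p = 0.417). Mo_Nr4a1Inmt_SC differed by 0.000837 ± 0.00265, higher in 2 of 4, and Mo_CD34_SC by -0.00190 ± 0.00294, higher in 1 of 4. Among border spots without a medulla-side neighbour the first of these was -0.00394 ± 0.00616 and the second -0.00325 ± 0.00278. Among border spots on germinal centre patches of 10 or more spots they were 0.00519 ± 0.00290 and 0.00180 ± 0.00147, both above 0 in 4 of 4. With medians Mo_Inmt_SC was above 0 and Mo_CD34_SC below 0 in 4 of 4.

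Ribosomal genes took a smaller share of counts at the border than in the T zone. Ribosomal percent averaged 25.1, 23.1, 19.7 and 19.8 in the border spots of A to D. T zone spots averaged 26.3, 24.9, 21.9 and 21.8. The difference was -1.77 ± 0.392 percentage points, below 0 in 4 of 4 (p = 0.125 by the exact test, adjusted p = 0.179), and -2.02 ± 0.513 with log10 UMIs fitted. Mitochondrial percent, often used as a sign of RNA quality, was 3.76 ± 0.931 at the border and 4.10 ± 0.851 in the T zone. Its difference of -0.345 ± 0.133 points was below 0 in 4 of 4 sections. Against T zone spots 2 or 3 steps from a germinal centre it was smaller, at -0.108 ± 0.136, and still below 0 in 4 of 4. Within the lower tissue piece it was -0.0483 ± 0.202, with both directions seen in 2 sections each. A lower mitochondrial percent was not particular to this edge. GC_B Border differed from B zone by -0.800 ± 0.352 points and GC_Medulla Border from Medulla by -1.72 ± 0.465, below 0 in 4 of 4 each. In all, 7 of the 10 measures had 1 direction in 4 of 4 sections, 5 higher and 2 lower at the border.

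**Figure D2:**
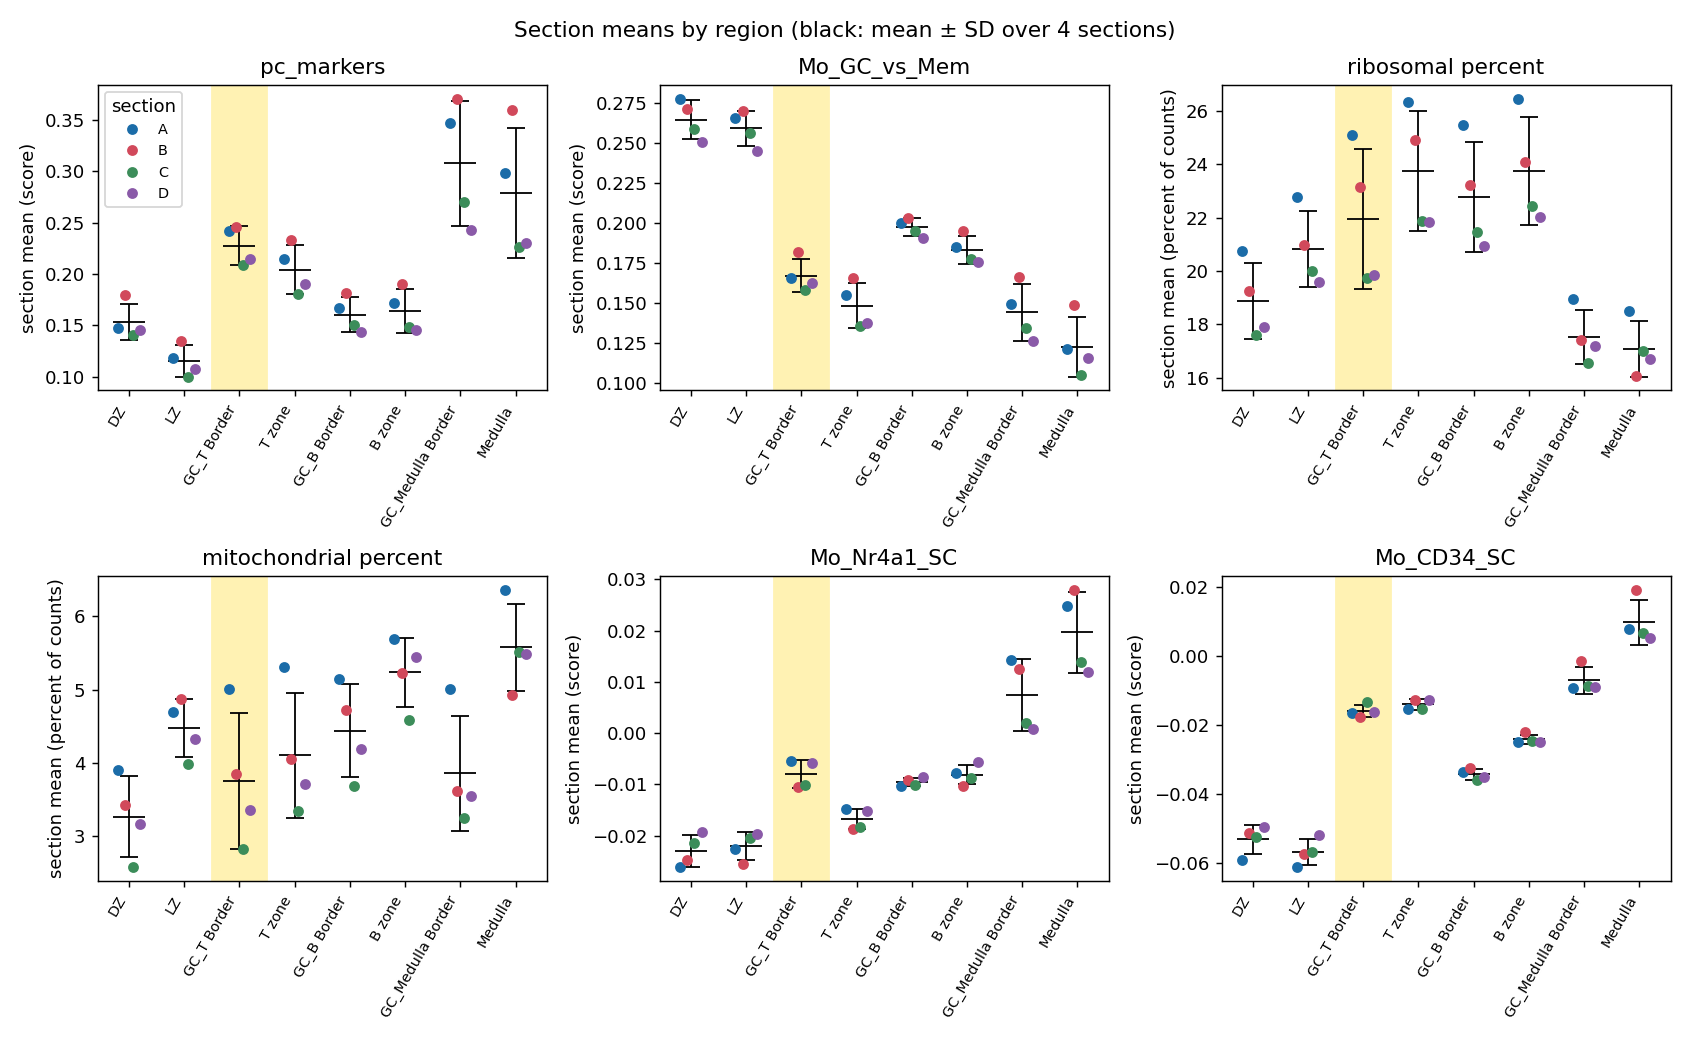
Section means of 6 measures by region, as scores or percent of counts on the y axis; coloured points are sections A to D, the black bar is the mean with SD over 4 sections, and GC_T Border is shaded. The border lies above DZ and T zone in pc_markers and Mo_Nr4a1_SC and between them in Mo_GC_vs_Mem, ribosomal percent and mitochondrial percent.

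The measures were then followed by array steps from the nearest germinal centre spot. At 1 step, the border itself, pc_markers was 0.228 ± 0.0188, followed by 0.211 ± 0.0227 in the 300 T zone spots at 2 steps and 0.199 ± 0.0227 in the 304 at 4 steps. At 8 steps it was 0.210 ± 0.0187, above the value at 4 steps in 3 of 4 sections. Mo_GC_vs_Mem was 0.167 ± 0.0105 at 1 step, 0.156 ± 0.0119 at 2 and 0.148 ± 0.0152 at 4. Ribosomal percent ran the other way, with 22.0 ± 2.62 at 1 step, 22.7 ± 2.39 at 2 and 24.3 ± 2.56 at 4. Mo_Nr4a1_SC was -0.00797 ± 0.00269 at 1 step, -0.0126 ± 0.00234 at 2 and -0.0208 ± 0.00368 at 4. From 1 to 4 steps, Mo_GC_vs_Mem was lower and ribosomal percent higher at each further step in 4 of 4 sections. For pc_markers that order broke between 2 and 3 steps in B and C, and for Mo_Nr4a1_SC between 3 and 4 steps in D. Farther out the values did not keep this course. At 8 steps Mo_Nr4a1_SC was -0.0121 ± 0.00487, close to its value at 2 steps, and ribosomal percent was 23.4 ± 1.57.

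**Figure D3:**
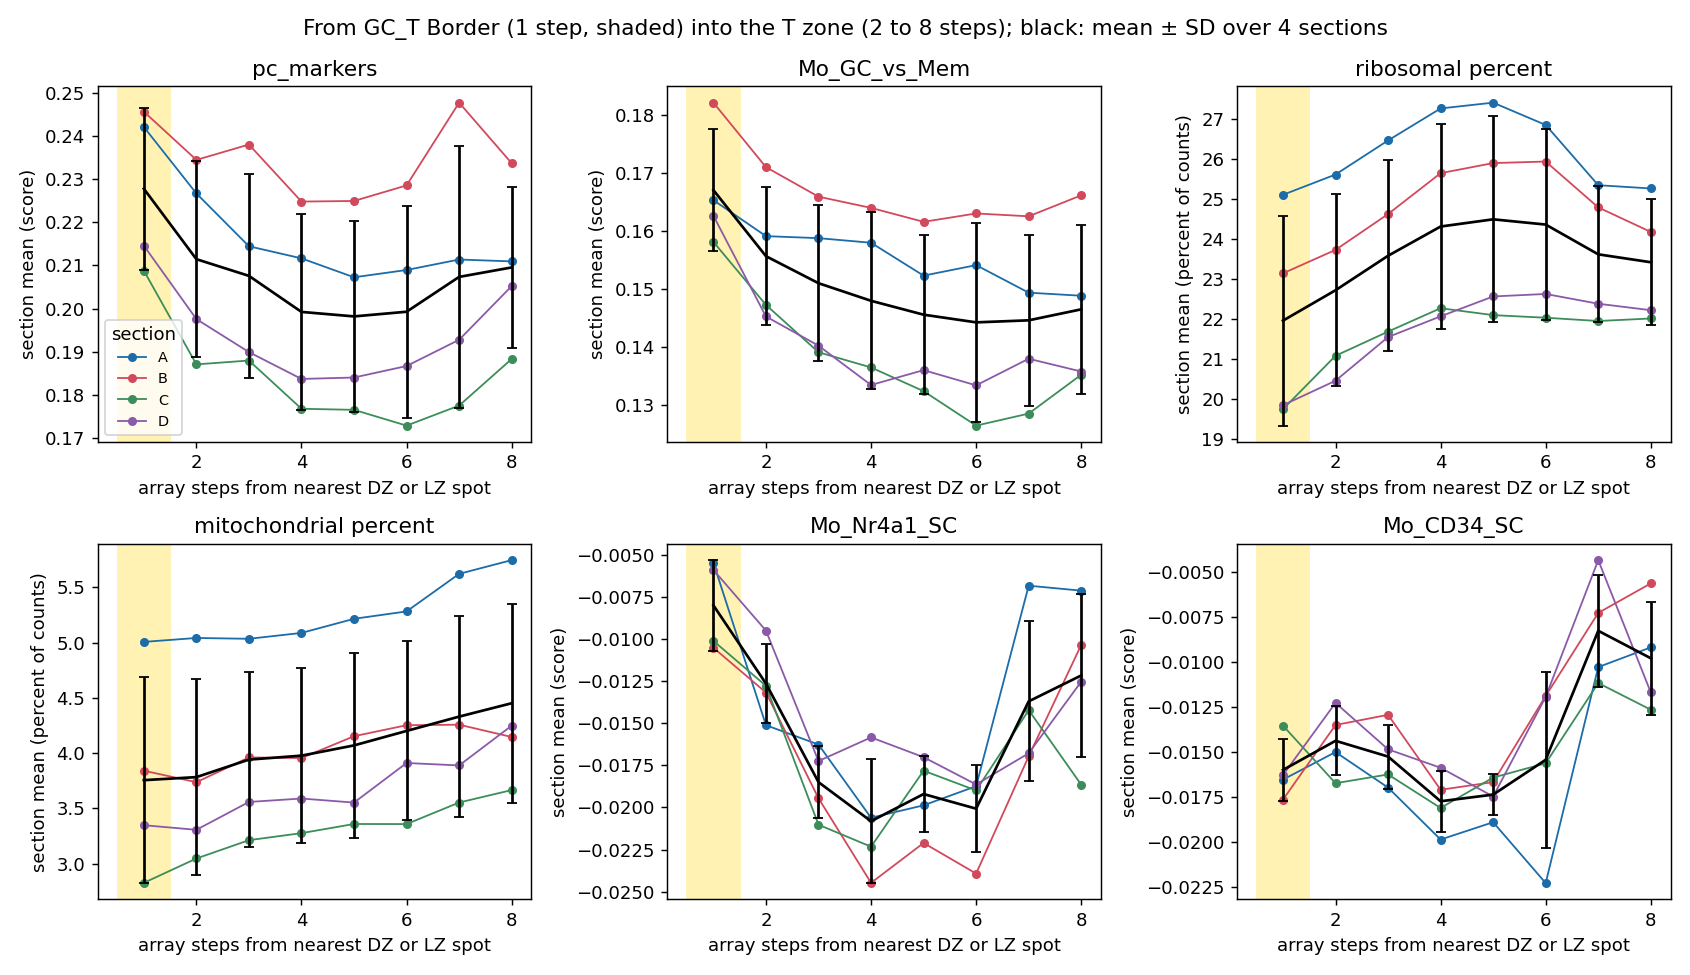
Section means of 6 measures, as scores or percent of counts, against array steps from the nearest DZ or LZ spot, from GC_T Border at 1 step (shaded) through T zone at 2 to 8 steps; coloured lines are sections and the black line is the mean with SD over 4 sections. The plasma cell marker score goes from 0.228 at 1 step to 0.199 at 4 steps while ribosomal percent goes from 22.0 to 24.3.

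The step from a region to its germinal centre edge was then compared between the T side and the other sides, with each step formed inside a section. The sides follow different expression clusters, and all edge spots lay next to DZ or LZ spots. These step contrasts and their p-values are therefore tied to the naming in part. On the B side, GC_B Border minus B zone was -0.00364 ± 0.00435 in pc_markers, against 0.0234 ± 0.00715 on the T side. The T side step was larger by 0.0270 ± 0.00480 in 4 of 4 (p = 0.125 by the exact test, adjusted p = 0.139 over 10 measures). For Mo_Nr4a1_SC the T side step was larger by 0.0102 ± 0.00240 and for ribosomal percent lower by -0.793 ± 0.378 points, each in 4 of 4. In this contrast 9 of the 10 measures had 1 direction, all except Mo_GC_vs_Mem. They included UMIs, at 615.0 ± 538, genes, mitochondrial percent and all 4 SC scores. For Mo_GC_vs_Mem both steps were above 0 in 4 of 4 sections, at 0.0187 ± 0.00644 and 0.0142 ± 0.00385. They differed by 0.00452 ± 0.00625 with the T side larger in 3 of 4 (p = 0.25 by the exact test).

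Against the medulla side the plasma cell marker step had no shared direction. GC_Medulla Border minus Medulla was 0.0289 ± 0.0198, above 0 in 4 of 4. The T side step differed from it by -0.00555 ± 0.0152, larger in 2 of 4 (p = 0.5 by the exact test, adjusted p = 0.714). The SC scores did separate the 2 sides. The 4 steps on the T side exceeded those on the medulla side in 4 of 4 sections, by 0.0210 ± 0.00174 for Mo_Nr4a1_SC, 0.0200 ± 0.00534 for Mo_Inmt_SC, 0.0201 ± 0.00367 for Mo_Nr4a1Inmt_SC and 0.0149 ± 0.00301 for Mo_CD34_SC. On the medulla side all 4 steps were below 0, from -0.0193 ± 0.00416 for Mo_Nr4a1Inmt_SC to -0.0122 ± 0.00222 for Mo_Nr4a1_SC. On the T side the steps in Mo_Inmt_SC, Mo_Nr4a1Inmt_SC and Mo_CD34_SC had no shared direction. The 2 sides also differed in ribosomal percent, by -2.22 ± 0.696 points, and mitochondrial percent, by 1.38 ± 0.343 points, in 4 of 4 each. These 6 measures each had p = 0.125 by the exact test and adjusted p = 0.208.

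Among the 3 edges, GC_T Border lay between the other 2 in the plasma cell and germinal centre scores. In pc_markers it was above GC_B Border by 0.0671 ± 0.00742 and below GC_Medulla Border by -0.0799 ± 0.0434, each in 4 of 4 sections. The gap to GC_Medulla Border was -0.105 in A and -0.125 in B, the deeper sections, and -0.0612 in C and -0.0284 in D. In Mo_GC_vs_Mem it was below GC_B Border by -0.0303 ± 0.00704 and above GC_Medulla Border by 0.0230 ± 0.00970, in 4 of 4 sections each. GC_T Border spots held 2564 ± 1253 more UMIs than GC_Medulla Border spots, and with log10 UMIs fitted the second of these differences was -0.00920 ± 0.00736, below 0 in 4 of 4.

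Mo_CD34_SC was above GC_B Border by 0.0184 ± 0.00317 in 4 of 4 sections, while Mo_Nr4a1_SC, Mo_Inmt_SC and Mo_Nr4a1Inmt_SC differed from it by 0.00159 ± 0.00273, 0.00238 ± 0.00396 and 0.00189 ± 0.00337, each higher in 3 of 4. With log10 UMIs fitted these 3 turned to -0.000126, -0.000927 and -0.000787. All 4 were below GC_Medulla Border in 4 of 4 sections, by up to -0.0215 ± 0.00652 for Mo_Inmt_SC, but Mo_CD34_SC turned to 0.000792 with log10 UMIs fitted. Ribosomal percent exceeded GC_Medulla Border by 4.44 ± 1.75 points and was below GC_B Border by -0.808 ± 0.737 points, in 4 of 4 sections each. The second of these was -0.506 without section C and -0.457 with log10 UMIs fitted, where 1 section was above 0, as 1 was within each tissue piece. Mitochondrial percent was below GC_B Border by -0.679 ± 0.358 points in 4 of 4, and differed from GC_Medulla Border by -0.0989 ± 0.275 with no shared direction.

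Border spots next to the medulla side were compared with the rest. Of the 158 spots, 51 had a GC_Medulla Border or Medulla neighbour, with 6, 17, 15 and 13 in sections A to D, a share of 32.1% ± 10.00. GC_Medulla Border alone or with Medulla was touched by 38 and Medulla by 25, with 12 touching both. T zone spots had such a neighbour in 28.6% ± 4.35 of cases.

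The plasma cell marker score showed no shared direction with medulla-side contact. The contact spots averaged 0.250, 0.265, 0.206 and 0.212 in A to D, and the other border spots 0.240, 0.236, 0.210 and 0.216. The difference was 0.00763 ± 0.0155, higher in 2 of 4 (p = 0.5 by the exact test, adjusted p = 0.556), and it was 0.000540 without section B. Within the upper tissue piece the contact spots were higher in 4 of 4 sections, by 0.0182 ± 0.0108. By steps from the medulla side the border means were 0.233 ± 0.0285 at 1, 0.242 ± 0.0184 at 2, 0.236 ± 0.0437 at 3 and 0.216 ± 0.0107 at 4 or more. With contact widened to 2 steps the difference was 0.0152 ± 0.00943, above 0 in 4 of 4, and with spots matched on being above or below the median UMIs it was 0.0110 ± 0.0110, also above 0 in 4 of 4. As few as 3 spots of a section stand behind the values at 2 and at 3 steps.

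Of the SC scores, 2 had a shared direction with contact. Mo_Inmt_SC was higher in contact spots by 0.0181 ± 0.00986 and Mo_Nr4a1Inmt_SC by 0.0121 ± 0.00422, in 4 of 4 each (p = 0.125 by the exact test, adjusted p = 0.208). Mo_Nr4a1_SC was higher by 0.0107 ± 0.00756 in 3 of 4 sections, with -0.000474 in D, and Mo_CD34_SC by 0.00457 ± 0.00453 in 3 of 4. Ribosomal percent was lower by -1.57 ± 0.306 points in 4 of 4. Contact spots also held fewer UMIs, by -1400 ± 654, and fewer genes, by -313.6 ± 91.8. Mo_GC_vs_Mem was lower by -0.00882 ± 0.00324 in 4 of 4, and with log10 UMIs fitted it was higher by 0.00339 ± 0.00229 in 4 of 4.

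T zone spots with a medulla-side neighbour were compared with other T zone spots in the same sections. Their differences were 0.0165 ± 0.00532 in Mo_Inmt_SC, 0.0134 ± 0.00558 in Mo_Nr4a1Inmt_SC, -2.62 ± 0.715 points in ribosomal percent and 0.00929 ± 0.0102 in pc_markers. Mo_Nr4a1_SC was higher with contact by 0.0157 ± 0.00665 and mitochondrial percent by 0.298 ± 0.161 points. All measures except pc_markers, 9 in all, had 1 direction with T zone contact, against 6 with contact inside the border. Of the 10 measures, 8 had no shared direction in the test of border contact against T zone contact. The other two were ribosomal percent, where the border difference was smaller in size by 1.05 ± 0.538 points, and Mo_CD34_SC, where it was lower by -0.00726 ± 0.00208, in 4 of 4 each (p = 0.125 by the exact test, adjusted p = 0.625). In the T zone Mo_CD34_SC was higher with contact by 0.0118 ± 0.00379.

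**Figure D4:**
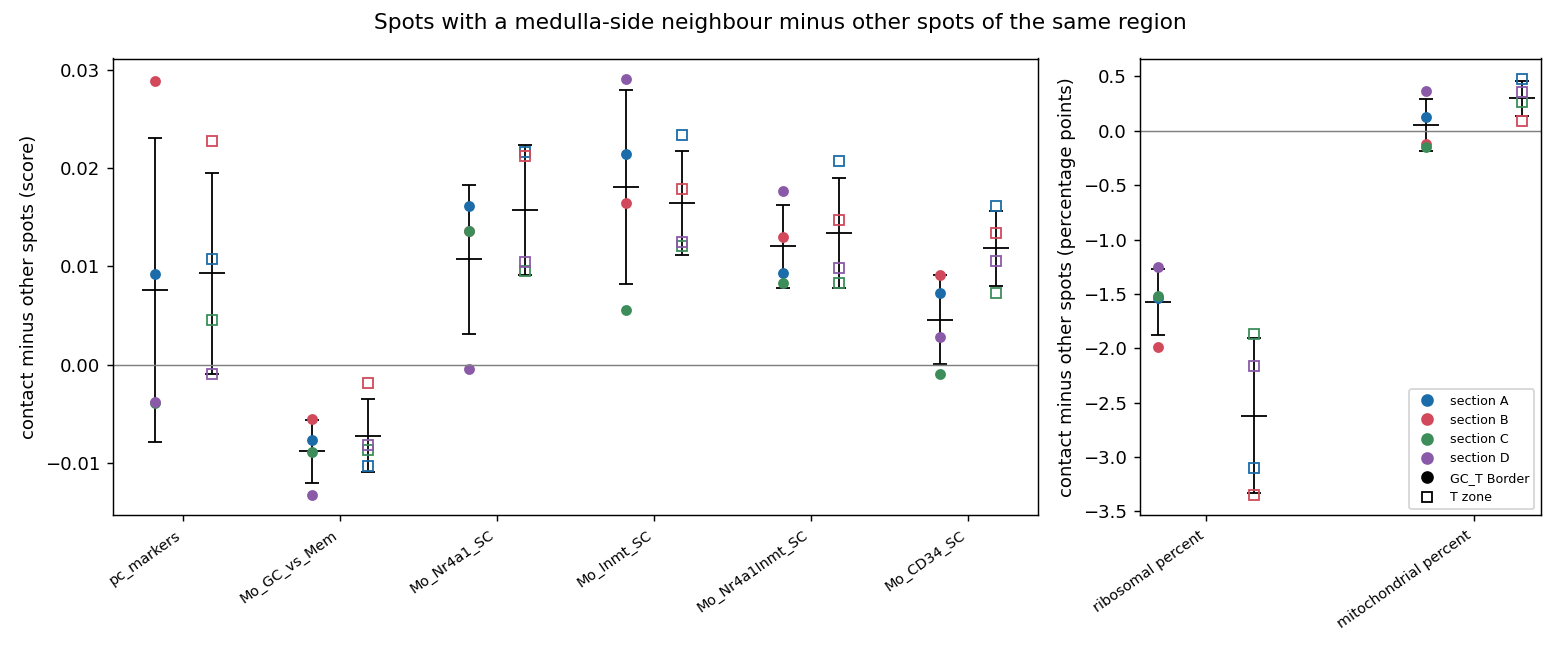
Difference between spots with and without a medulla-side neighbour, in score units (left) and percentage points (right); filled circles are GC_T Border, open squares T zone, colours are sections and the black bar is the mean with SD over 4 sections. In pc_markers the border points scatter on both sides of 0, from -0.00390 to 0.0289, while Mo_Inmt_SC and Mo_Nr4a1Inmt_SC are above 0 in 4 of 4 sections in both regions.

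Contact with the follicle went with a lower plasma cell marker score. A GC_B Border or B zone neighbour was present for 87 border spots and absent for 71. The spots with one differed by -0.0135 ± 0.00398 in pc_markers, with -0.0189, -0.00970, -0.0137 and -0.0116 in A to D (p = 0.125 by the exact test, adjusted p = 0.313 over 10 measures). Mitochondrial percent differed by -0.291 ± 0.0675 points, Mo_Inmt_SC by -0.00486 ± 0.00302 and Mo_Nr4a1Inmt_SC by -0.00257 ± 0.00162, each below 0 in 4 of 4 sections. A medulla-side neighbour was present for 20 of these 87 spots and for 51 of all 158 border spots, so it was less frequent with follicle contact. The 2 kinds of contact were not separated, and a part of medulla-side contact in these differences was not tested.

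By number of germinal centre neighbours, 2 of the 10 measures had a shared direction. The 74 spots with 2 or more DZ or LZ neighbours exceeded the 84 spots with 1 in Mo_GC_vs_Mem by 0.00831 ± 0.00369, in 4 of 4 (p = 0.125 by the exact test, adjusted p = 0.625). Ribosomal percent was lower by -0.285 ± 0.112 points in 4 of 4. In pc_markers the difference between these spots was 0.00337 ± 0.0187, above 0 in A and B and below 0 in C and D. The 7 other measures had no shared direction.

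Inside the border, pc_markers ran with the SC scores and not with the germinal centre score. Spearman's rho over the spots of a section, given as a description because spots share a library and depth, was 0.453 ± 0.0665 with Mo_CD34_SC, 0.316 ± 0.195 with Mo_Nr4a1_SC, 0.316 ± 0.153 with Mo_Nr4a1Inmt_SC and 0.296 ± 0.110 with Mo_Inmt_SC, above 0 in 4 of 4 sections each. With Mo_GC_vs_Mem it was -0.0957 ± 0.132. With UMIs it was -0.127 in A and -0.0731 in B, and 0.361 in C and 0.440 in D, so it took opposite signs in the deeper and the shallower sections. Genes shared between the score lists could not be examined, as the lists themselves were not analysed here.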

How the data were processed

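Visium libraries of 4 lymph node sections were analysed from the table the authors deposited, with 1 line per spot. Build mm10, Seurat 4.2.1 and Space Ranger 1.3.1 appear in the submitters' processing notes; how spots were filtered, named and scored was not given in the sources read. Per the file headers, the deposited columns are raw counts per spot (UMIs and genes), the percent of counts from mitochondrial and ribosomal genes, and 6 score columns, used without further normalization. The alignment files were not used.

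Neighbours were the 6 adjacent positions by array row and column. For each section, means over spots were subtracted between sets of at least 3 spots, and the 4 differences were tested two-sided by exact sign-flip permutation over 16 sign assignments, with Benjamini-Hochberg adjustment over 10 measures in each comparison. Every measure is named, since the table holds no genes. The spot sets, measures and comparisons were chosen with earlier results of these data known. The comparisons with DZ, of steps between edges, of T zone contact and follicle contact, and the matched differences were added after the planned values had been seen. So were the differences for border spots on germinal centre patches of 10 or more spots. Functions were tested on simulated data. Python 3.11.15, pandas 2.3.3 and SciPy 1.17.1 were used.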

Additional observations from a re-analysis of the deposited data

Results flagged for a closer look

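In 7 of the 130 results examined, 1 section lay far from the other 3. By chance, such a gap is found in about 1 in 20 sets of 4. For GC_T Border minus GC_B Border, mitochondrial percent was -0.142 in section A against -0.875 to -0.841 in the others, and Mo_Inmt_SC was -0.00348 in B against 0.00383 to 0.00528. For medulla-side contact inside the border, Mo_Nr4a1_SC was -0.000474 in D against 0.0136 to 0.0161. For the same contact in the T zone, genes differed by -559.5 in A against -271.9 to -245.2. For follicle contact inside the border, Mo_Nr4a1Inmt_SC was -0.000165 in A against -0.00364 to -0.00323. For GC_T Border minus DZ, pc_markers was 0.0942 in A against 0.0662 to 0.0692. For the T side step less the medulla side step, Mo_Nr4a1_SC was 0.0236 in B against 0.0200 to 0.0205, with 1 direction throughout.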

How the results depend on the processing

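Against the T zone, 153 of 158 alternative values kept their direction, and pc_markers and Mo_GC_vs_Mem kept theirs under every alternative run. The count of measures with 1 direction in all sections was 4 within the lower piece, 8 with medians and 9 on patches of 10 or more germinal centre spots, against 7. Mo_CD34_SC became 3.57e-06 after the fit on log10 UMIs and 0.000441 on those patches, and Mo_Inmt_SC and Mo_Nr4a1Inmt_SC became -0.00394 and -0.00325 without medulla-side neighbours. Leaving out 1 section, Mo_Nr4a1Inmt_SC ranged from -0.000131 to 0.00161. Against GC_B Border the fit gave -0.000126, -0.000927 and -0.000787 for Mo_Nr4a1_SC, Mo_Inmt_SC and Mo_Nr4a1Inmt_SC, and leaving out 1 section gave 6 to 10 measures with 1 direction (10 without section B). Against GC_Medulla Border the fit gave -0.00920 for Mo_GC_vs_Mem and 0.000792 for Mo_CD34_SC, and mitochondrial percent was 0.0142 with medians, 0.246 in the lower piece and -0.205 to 0.00862 with 1 section left out. For medulla-side contact, the lower piece, where section A gave no value, left 2 measures of 6 with 1 direction and a mitochondrial difference of -0.0998, which was -0.0475 to 0.122 with 1 section left out. The fit gave 0.00339 for Mo_GC_vs_Mem.

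By number of germinal centre neighbours, 21 of 109 alternative values changed direction, all in measures with no shared direction. Medians gave 0.0356 for mitochondrial percent and -0.00172 for Mo_Nr4a1_SC, ranks 0.313 and, for pc_markers, -0.240 points, and the fit -6.38 genes. The upper piece gave 0.0372 for mitochondrial percent and -0.00233 for Mo_Nr4a1Inmt_SC, and the lower left 1 measure with 1 direction. With 3 or more neighbours, possible in sections C and D alone, UMIs differed by -588.9, genes by -199.7, pc_markers by -0.0295 and Mo_Inmt_SC by -0.00107. Leaving out 1 section gave 2 to 4 measures with 1 direction (4 without A or D). Its ranges were -373.4 to 560.4 for UMIs, -91.0 to 116.2 for genes, -0.0446 to 0.0456 for mitochondrial percent, -0.00238 to 0.00968 for pc_markers, -0.00154 to 0.00577 for Mo_Nr4a1_SC and -0.00133 to 0.00298 for Mo_Nr4a1Inmt_SC. The causes were not tested. The 51 contact spots and the serial sections limit what these data can resolve.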
